A study of Mus musculus with 20 samples.

Results

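Transcripts of 10 genes that make, move or consume taurine, glycine and the sulfur amino acids were followed in kidney and liver of male mice after JQ1, out of 55642 genes in the deposited files. The genes were Csad, Cdo1, Slc6a6, Cth, Cbs, Gldc, Amt, Gnmt, Shmt1 and Dmgdh, taken by symbol, with the estimated reads of each gene summed over its transcripts in all 20 libraries. They had been chosen by the effects of JQ1 treatment on their CPM in both organs and by how these effects differed between the organs. Their differences between JQ1 treatment and control, between JQ1 treatment and JQ1 recovery, and between the organs in the treatment effect are therefore given as a description, without a test. All 10 passed the filter on low counts in both organs.

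Bulk RNA of both organs came from adult males of DBA/2J, an inbred laboratory strain. JQ1 is a small molecule that competes for the acetyl-lysine pocket of BET bromodomain proteins, and both organs were sequenced beside the testis to learn whether dosing altered tissues outside it. The 3 JQ1 treatment mice of each organ received 50 mg/kg intraperitoneally every day for 3 weeks and were sampled when dosing ended, aged 10 weeks. The 3 JQ1 recovery mice had the same dosing and were sampled, aged 16 weeks, once 6 weeks without JQ1 had passed. The control of each organ pooled 4 vehicle mice, of which 3 were of the treatment time and 1 of the recovery time, so 3 of the 4 controls were younger than the recovery mice. Pooling the vehicle mice of an organ followed the study's methods. A figure legend in the supplement swaps the vehicle numbers of both times and states a shorter recovery than the sample labels do. The labels were used here, so the ages of the controls and the length of the recovery rest on them. Sample titles call all 4 controls vehicle, whereas the series' design text speaks of untreated and vehicle animals. The labels leave unsaid which kidney and liver libraries, if any, share a mouse, and whether libraries of a group were separate animals is given by their numbers alone.

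Taurine is made from cysteine, which cysteine dioxygenase (Cdo1) oxidises and cysteine sulfinic acid decarboxylase (Csad) decarboxylates, and cells take it up through the transporter encoded by Slc6a6. In liver taurine conjugates bile acids, and in kidney it serves as an osmolyte that the tubule reabsorbs. Cysteine itself comes from homocysteine through cystathionine beta-synthase (Cbs) and cystathionine gamma-lyase (Cth), while glycine is split by the mitochondrial glycine cleavage system, which includes Gldc and Amt, interconverted with serine by Shmt1, methylated by Gnmt and regenerated from dimethylglycine by Dmgdh followed by sarcosine dehydrogenase.

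Estimated reads numbered 13952510 to 26895318 per kidney library and 11968500 to 17529910 per liver library. Per library the members took between 137 and 504 reads for Gldc in kidney, the thinnest case, and between 11420 and 36150 reads for Gnmt in liver, the deepest. Values per library are given as CPM, reads scaled to the size of each library with the TMM factors of its organ. The liver libraries labelled JQ1 recovery 2 and 3 held kidney transcripts. The median of 10 kidney genes in them reached 35.2% and 11.7% of the level in kidney recovery libraries, against 0.0218% in replicate 1. Kap, an androgen-regulated kidney transcript, stood at 3541 and 2138 CPM in them, against 20.4 CPM in replicate 1 and at most 3.02 CPM in the remaining liver libraries. Results that rest on these libraries are given with and without them. In whole tissue, fewer cells of a type and less RNA per cell cannot be told apart.

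Upstream sequence is shown for the 3 members whose kidney libraries after JQ1 treatment lay apart from all controls, Csad and Amt below them and Gldc above. The windows run from 250 bases before to 50 after the start in RefSeq (GRCm38.p6), 5′ to 3′ on the strand of the gene, with matches to 3 motifs in capitals on either strand. These motifs were the CCAAT box (CCAAT), the GC box (GGGCGG) and a nuclear receptor motif (AGGTCA). Csad had 2 annotated starts, at chr15:102205003-102205302 and chr15:102188994-102189293 on the minus strand. The Gldc window is chr19:30175392-30175691 on the minus strand, and that of Amt is chr9:108296655-108296954 on the plus strand.
Csad, first start: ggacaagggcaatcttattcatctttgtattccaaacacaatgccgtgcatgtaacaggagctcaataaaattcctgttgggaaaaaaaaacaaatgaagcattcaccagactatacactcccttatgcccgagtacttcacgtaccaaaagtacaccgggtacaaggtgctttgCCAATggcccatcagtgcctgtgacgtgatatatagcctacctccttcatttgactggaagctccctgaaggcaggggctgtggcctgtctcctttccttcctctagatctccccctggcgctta
Csad, second start: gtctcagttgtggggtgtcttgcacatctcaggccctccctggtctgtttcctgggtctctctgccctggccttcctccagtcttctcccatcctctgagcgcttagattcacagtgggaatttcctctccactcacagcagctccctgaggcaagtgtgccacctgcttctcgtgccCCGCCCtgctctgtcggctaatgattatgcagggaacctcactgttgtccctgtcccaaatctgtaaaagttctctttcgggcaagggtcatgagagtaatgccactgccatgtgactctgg
Gldc: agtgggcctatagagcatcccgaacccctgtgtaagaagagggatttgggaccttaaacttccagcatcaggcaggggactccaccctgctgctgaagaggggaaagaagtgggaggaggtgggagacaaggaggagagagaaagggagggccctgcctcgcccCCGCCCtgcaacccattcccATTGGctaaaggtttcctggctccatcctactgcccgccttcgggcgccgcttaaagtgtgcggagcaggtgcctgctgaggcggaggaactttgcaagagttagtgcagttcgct
Amt: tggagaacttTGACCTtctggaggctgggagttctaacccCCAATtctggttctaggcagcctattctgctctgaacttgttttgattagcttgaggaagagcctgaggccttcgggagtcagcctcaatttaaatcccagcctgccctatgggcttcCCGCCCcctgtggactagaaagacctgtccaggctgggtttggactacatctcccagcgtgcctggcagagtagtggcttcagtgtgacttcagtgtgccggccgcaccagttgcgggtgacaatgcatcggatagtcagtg

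Gldc and Amt each held a CCAAT box and a GC box, and Csad held the CCAAT box before its first start and the GC box before its second. The CCAAT box lay 66 bases before the start in Gldc, 75 in Csad and 210 in Amt. The GC box lay 86 bases before the start in Gldc, 92 in Amt and 72 in Csad. Amt alone of the 3 genes held the nuclear receptor motif, 240 bases before its start. RefSeq promoters could be matched for 7 members, with 8 starts in all. Of these 8 windows, 6 held the CCAAT box and 6 the GC box, against 37.4% and 35.7% of all 32851 promoters of this length. The nuclear receptor motif stood in 2, against 16.3% of all, and the E-box (CACGTG) in 1, against 7.15%. None of the 8 held TATAAA (13.6% of all promoters did), the CEBP-ATF element TGATGCAA (0.895% did), the HNF1 motif GTTAAT (7.1% did) or the cAMP response element TGACGTCA (1.79% did). Gldc, whose level was higher after JQ1, and Csad and Amt, whose levels were lower, thus shared 2 motifs that are common in promoters at large.

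In vehicle mice the order of the members differed between the organs. Levels of different genes were compared as TPM, which is per transcript length. In kidney Csad led with 127 ± 8.8 TPM (SD, n = 4), a level exceeded by 663 genes, and Slc6a6 came next with 56.0 ± 4.7 TPM. Gnmt, Cdo1 and Cth followed at 44.9 ± 9.47, 34.9 ± 7.34 and 31.7 ± 2.22 TPM, then Amt, Cbs and Shmt1 at 16.4 ± 1.65, 15.3 ± 3.39 and 12.2 ± 1.51 TPM. Dmgdh stood at 7.54 ± 0.97 TPM and Gldc last at 2.14 ± 0.37 TPM. Of neighbours in this order, Csad stood clear of Slc6a6, Cth of Amt, Shmt1 of Dmgdh and Dmgdh of Gldc, while the libraries of the other neighbours overlapped.

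In liver Gnmt led with 1477 ± 218 TPM (SD, n = 4), a level that 59 genes exceeded, followed by Cdo1 at 167 ± 31.4 TPM and Csad at 77.6 ± 6.21 TPM. Cth had 57.8 ± 8.42 TPM, Shmt1 24.7 ± 2.57 and Cbs 20.0 ± 2.53. Dmgdh, Slc6a6, Amt and Gldc closed the order at 15.5 ± 3.04, 15.1 ± 1.34, 10.0 ± 1.37 and 7.83 ± 1.27 TPM. Here Cbs and Dmgdh, Dmgdh and Slc6a6, and Amt and Gldc overlapped, and the other neighbours lay apart. Gldc, which carries the decarboxylase step of glycine cleavage, was lowest in both organs.

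**Figure D1:**
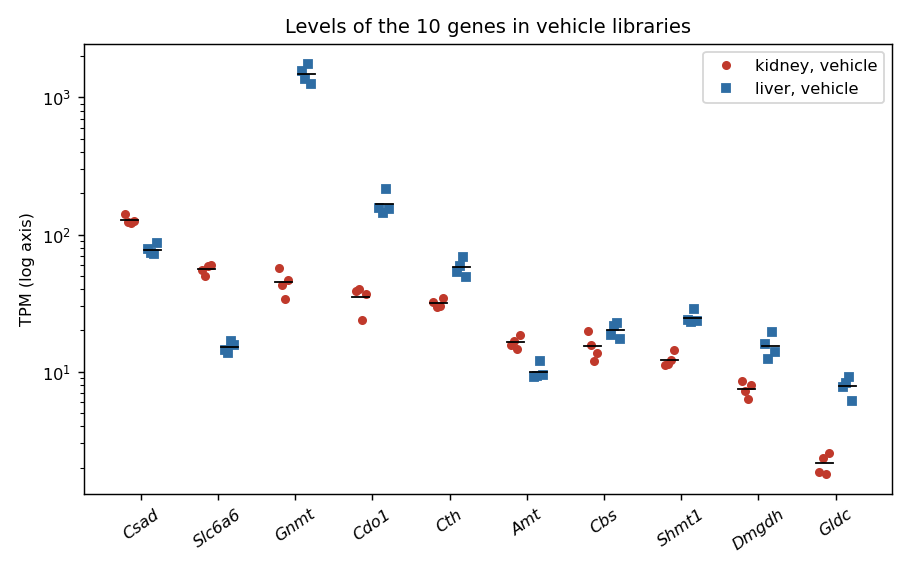
Level of each member in the 4 vehicle libraries of kidney and of liver, in TPM on a log axis, with a point per library and a line at the mean. Csad is highest in kidney (127 TPM) and Gnmt in liver (1477 TPM), and Gldc is lowest in both.

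Between the organs of vehicle mice the levels of all 10 members passed the test, 1 higher in kidney and 9 lower, where 61.8% of all genes passed, 32.1% higher and 29.6% lower (edgeR, 20 libraries in 6 groups). Gnmt, which methylates glycine to sarcosine and so disposes of surplus methyl groups, differed most, with a log2 difference of kidney minus liver of -6.52 ± 0.23 (SE, adjusted p = 1.24e-13). Cdo1 was lower in kidney by -3.73 ± 0.19 (adjusted p = 6.01e-12) and Gldc by -3.34 ± 0.15 (adjusted p = 7.52e-14) on the log2 scale in edgeR's test. The differences of Dmgdh, Shmt1, Cth and Cbs were -2.51 ± 0.15, -2.49 ± 0.11, -2.34 ± 0.12 and -1.99 ± 0.16. Slc6a6, the taurine transporter, was the 1 member higher in kidney, by 0.44 ± 0.09 (edgeR, adjusted p = 0.000234). For Csad (-0.87 ± 0.10) and Amt (-0.77 ± 0.12) the direction depended on the scale. Without TMM factors the median of all genes moved by 0.86 and these values became -0.00 (adjusted p = 0.968) and 0.09 (adjusted p = 0.452) by edgeR, and in TPM both genes were higher in kidney than in liver.

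The reads behind some members came from few transcript models. Salmon assigned 87.6% to 97.2% of Gnmt reads in kidney and 89.4% to 94.5% in liver to Gnmt-202, which the files name as a retained-intron transcript and whose length therefore enters the TPM of Gnmt. For Cbs the retained-intron model Cbs-207 took 23.0% to 29.1% of kidney reads and 15.2% to 25.9% of liver reads, and Cbs-211 took most of the rest, at 70.3% to 77.0% in kidney and 74.1% to 84.8% in liver. Csad-201 took 95.5% to 99.0% of Csad reads in kidneys and 97.4% to 100% in livers. Gldc-201 took 93.4% to 99.2% of Gldc reads in kidneys and 91.9% to 98.8% in livers. For Csad and Gldc the gene value is thus close to that of a single transcript.

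When JQ1 dosing ended, the kidney libraries of 3 members did not overlap control, as was true of 15.2% of all 17158 genes tested. Gldc was the 1 higher, and Csad and Amt the 2 lower. Of all genes 4.13% were called, 1.4% higher and 2.73% lower. This contrast chose the members, so no call is given for them and these shares carry no weight for them. The median log2 fold change over the 10 members was -0.04, against -0.01 over all genes, so the members did not move one way.

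Csad (ENSMUSG00000023044.3) stood at 148, 195 and 163 CPM in the JQ1 treatment kidneys, against 324, 297 and 294 CPM in vehicle kidneys of the treatment time and 345 CPM in the vehicle kidney of the recovery time. All 3 JQ1 treatment kidneys lay well below the lowest vehicle kidney. Means were 169 ± 24.3 CPM (SD, n = 3) and 315 ± 24.1 CPM (n = 4), a log2 fold change of -0.90 ± 0.09 (SE) or 0.54-fold, which ran between -1.02 and -0.81 over 18 alternatives. JQ1 recovery kidneys held 348, 320.3 and 328 CPM, inside or just above the range of the vehicle kidneys.

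The other members of the taurine branch overlapped their controls in kidney. Cdo1 (ENSMUSG00000033022.9), which supplies the substrate of Csad, had 67.3, 75.6 and 80.7 CPM in JQ1 treatment kidneys, against 71.6, 44.1, 66.2 and 69.4 CPM in vehicle kidneys (log2 fold change 0.25 ± 0.16). The transporter Slc6a6 (ENSMUSG00000030096.9) had 385, 336 and 372 CPM in JQ1 treatment kidneys, against 316, 383, 379 and 310.3 CPM in vehicle kidneys (0.07 ± 0.08). Of the 3 genes of this branch, Csad alone lay apart from its controls.

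Both members of the glycine cleavage system that were listed lay apart from the vehicle kidneys, in opposite directions. Gldc (ENSMUSG00000024827.11), the pyridoxal phosphate enzyme that decarboxylates glycine, had 25.2, 18.8 and 21.5 CPM in JQ1 treatment kidneys, against 10.9, 8.56 and 11.8 CPM in vehicle kidneys of the treatment time and 8.61 CPM in that of the recovery time. Every JQ1 treatment kidney was above every vehicle kidney. Means were 21.9 ± 3.18 CPM (SD, n = 3) and 9.97 ± 1.63 CPM (n = 4), a log2 fold change of 1.12 ± 0.15 or 2.18-fold, between 1.01 and 1.23 over 18 alternatives. Amt (ENSMUSG00000032607.13), the aminomethyltransferase that passes the methylene group of glycine to tetrahydrofolate, had 24.6, 27.1 and 23.3 CPM in JQ1 treatment kidneys, against 40.6, 36.9, 45.1 and 38.2 CPM in vehicle kidneys. The groups again did not overlap, now with JQ1 treatment below. The log2 fold change of Amt was -0.68 ± 0.09 or 0.62-fold, between -0.78 and -0.61 over 18 alternatives. Gldc rested on 137 to 504 reads per kidney library, Amt on 354 to 995 and Csad on 2130 to 6563. The standard error was larger for Gldc (0.15) than for Amt and Csad (0.09 each).

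Shmt1 (ENSMUSG00000020534.15), the cytosolic enzyme that exchanges serine and glycine, had 44.5, 44.6 and 47.7 CPM in JQ1 treatment kidneys, against 39.4, 43.0, 49.9 and 38.9 CPM in vehicle kidneys. The JQ1 treatment values fell within the vehicle range (log2 fold change 0.09 ± 0.09). Of the transsulfuration enzymes, Cbs (ENSMUSG00000024039.16) had 48.4, 58.2 and 54.6 CPM after JQ1 treatment, against 63.1, 51.7, 56.0 and 77.7 CPM in vehicle kidneys, a log2 fold change of -0.21 ± 0.11. Cth (ENSMUSG00000028179.13) had 67.8, 67.9 and 84.4 CPM after JQ1 treatment, against 62.2, 64.4, 71.9 and 67.6 CPM in vehicle kidneys, a log2 fold change of 0.14 ± 0.09. Both enzymes overlapped their controls, and the vehicle kidney of the recovery time was the highest of all 4 for Cbs.

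Gnmt (ENSMUSG00000002769.10) had 26.1, 34.2 and 33.1 CPM in JQ1 treatment kidneys, against 35.5, 28.5, 37.8 and 47.0 CPM in vehicle kidneys (-0.26 ± 0.16). Dmgdh (ENSMUSG00000042102.8), the mitochondrial dimethylglycine dehydrogenase, had 23.5, 25.6 and 26.1 CPM in JQ1 treatment kidneys, against 26.6, 23.8, 28.9 and 31.6 CPM in vehicle kidneys (-0.15 ± 0.11). Neither gene separated the groups.

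**Figure D2:**
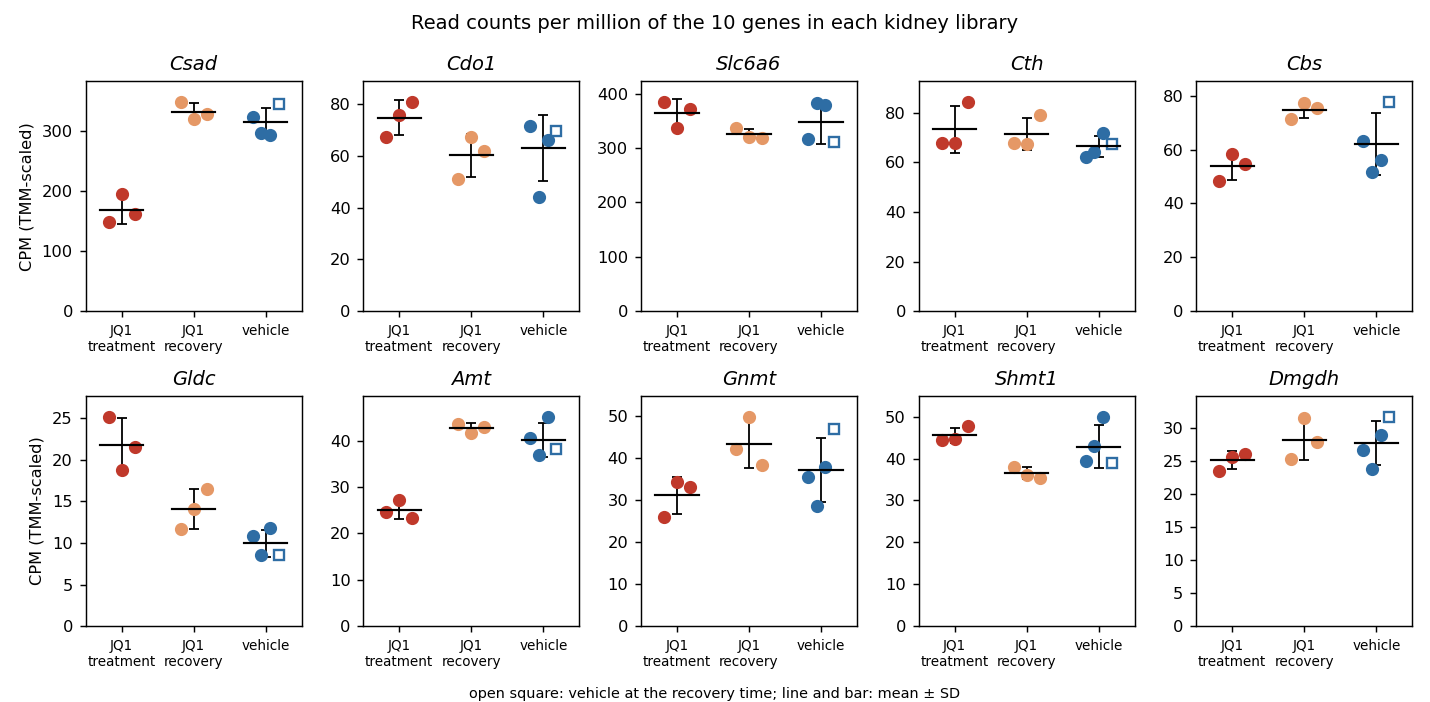
CPM of the 10 members in each kidney library, in a panel per gene, with JQ1 treatment, JQ1 recovery and vehicle from left to right, lines and bars at mean ± SD, and an open square for the vehicle kidney of the recovery time. The JQ1 treatment points of Csad (148 to 195 CPM) and Amt (23.3 to 27.1 CPM) lie below every vehicle point, those of Gldc (18.8 to 25.2 CPM) lie above, and the other 7 genes overlap.

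Markers of other cell types were read in the same kidney libraries, as CPM summed over a list without TMM factors. Of 8 proximal tubule markers, 2 were called higher and 1 lower, and their summed level was 6491 to 7051 CPM in JQ1 treatment kidneys, against 5965 to 6494 CPM in vehicle kidneys. Of the 10 kidney genes read in liver, 2 were called higher and 2 lower in kidney. Kap, 1 of these 10, was lower without overlap, at 10053 to 10815 CPM in JQ1 treatment kidneys, against 12850 to 21810 CPM in vehicle kidneys. Of 5 red cell markers 3 were called higher, with sums of 9080 to 12078 CPM in JQ1 treatment kidneys, against 4779 to 8246 CPM in vehicle kidneys, without overlap. None of the 5 adipocyte markers was called, but their sum ran from 21.0 to 331 CPM in JQ1 treatment kidneys, against 29.4 to 127 CPM in vehicle kidneys. None of the 4 leukocyte markers tested was called, with sums of 11.6 to 40.9 CPM in JQ1 treatment kidneys, against 14.2 to 22.9 CPM in vehicle kidneys. Of 5 thick limb and distal tubule markers 2 were called lower, with sums of 1115 to 1700.4 CPM in JQ1 treatment kidneys, against 1601 to 1701 CPM in vehicle kidneys. Of 4 podocyte markers 1 was called higher, with sums of 95.1 to 115 CPM in JQ1 treatment kidneys, against 91.2 to 118 CPM in vehicle kidneys. None of 5 endothelium markers was called, but their sum was lower without overlap, at 216.5 to 251 CPM in JQ1 treatment kidneys, against 255 to 279 CPM in vehicle kidneys. None of 5 collecting duct markers was called, with sums of 188 to 412 CPM in JQ1 treatment kidneys, against 228 to 347 CPM in vehicle kidneys. The part of these cell types in the values of Csad, Gldc and Amt was not tested. Hepatocyte markers summed to 12.5 to 58.4 CPM in JQ1 treatment kidneys, against 12.9 to 70.2 CPM in vehicle kidneys, and to at least 80317 CPM in vehicle livers, so liver RNA was near 0 in both groups of kidneys.

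At JQ1 recovery the kidneys were tested, because the recovery libraries had not chosen the genes. In both organs the vehicle libraries are shared with the treatment comparison, so p at recovery is not wholly independent of that choice. None of the 10 members was called against control in kidney by edgeR, where 0.00583% of all genes were, 1 of 17158. At an unadjusted p below 0.05 stood 1571 genes, while DESeq2 called 103 genes and none of the members. Gldc had the largest difference, with 11.7, 14.0 and 16.5 CPM in JQ1 recovery kidneys, against 10.9, 8.56, 11.8 and 8.61 CPM in vehicle kidneys. One JQ1 recovery kidney lay inside the vehicle range and the other 2 above it. The log2 fold change was 0.50 ± 0.15 (edgeR, adjusted p = 0.307). Without the filter on low counts, the adjusted p of Gldc by edgeR was 0.0388 at an unchanged log2 fold change of 0.50.

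Shmt1 was the member whose recovery kidneys did not overlap control, with 38.0, 36.1 and 35.3 CPM in JQ1 recovery kidneys, against 39.4, 43.0, 49.9 and 38.9 CPM in vehicle kidneys (log2 fold change -0.23 ± 0.09, adjusted p = 0.447 by edgeR). Of all genes 10.5% had no overlap in this comparison, and 5.2% were lower without overlap. The lowest vehicle value of Shmt1 (38.9 CPM) was that of the recovery time, and against that kidney alone its log2 fold change was -0.08. Cbs had 71.4, 77.4 and 75.3 CPM in JQ1 recovery kidneys, against 63.1, 51.7, 56.0 and 77.7 CPM in vehicle kidneys (0.27 ± 0.11, adjusted p = 0.49 by edgeR). The highest vehicle value was again that of the 1 kidney of the same age as the recovery mice. Leaving that kidney out gave 0.40 for Cbs (adjusted p = 0.0342 by edgeR), and comparing with that kidney alone gave -0.05. Csad and Amt, the members lower at the end of dosing, had recovery log2 fold changes of 0.08 (adjusted p = 0.841) and 0.09 (adjusted p = 0.824) by edgeR, and the other 5 members lay between -0.09 and 0.22. Amt had 43.6, 41.7 and 42.9 CPM in JQ1 recovery kidneys, all within the 36.9 to 45.1 CPM of the vehicle kidneys. Gnmt had 42.1, 49.8 and 38.4 CPM in JQ1 recovery kidneys, against 28.5 to 47.0 CPM in vehicle kidneys, and Dmgdh 25.3, 31.4 and 27.8 CPM, against 23.8 to 31.6 CPM. For Cth (67.8, 67.6 and 79.0 CPM), Cdo1 (51.2, 67.3 and 61.8 CPM) and Slc6a6 (336, 321 and 319 CPM) the recovery kidneys likewise overlapped the vehicle kidneys.

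JQ1 treatment and JQ1 recovery kidneys were also set side by side. The treatment libraries had chosen the members, so no call is given for them. Of all genes 7.31% were called (2.41% higher, 4.91% lower). The groups did not overlap for 7 members, beside 27.2% of all genes, a share that carries no weight for them. The log2 differences of treatment minus recovery were -0.98 for Csad, -0.77 for Amt and 0.63 for Gldc. Cbs and Gnmt were also lower at treatment than at recovery without overlap (-0.47 and -0.48), whereas Shmt1 and Slc6a6 were higher (0.32 and 0.16). For Cbs and Gnmt the vehicle kidney of the recovery time (77.7 and 47.0 CPM) was likewise above all 3 vehicle kidneys of the treatment time (51.7 to 63.1 and 28.5 to 37.8 CPM). Age and withdrawal cannot be told apart in these values.

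The comparison of JQ1 treatment with control in liver had also chosen the members, so no call is given for them. The groups did not overlap for 3 members, beside 12.9% of all 14559 genes. The 3 were Csad, higher after JQ1 (beside 6.79% of all genes), and Cbs and Shmt1, lower (beside 6.13%). The median log2 fold change over the members was 0.02, against 0.00 over all genes.

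Csad had 514, 446 and 517 CPM in JQ1 treatment livers, against 323, 281, 382 and 344 CPM in vehicle livers. The lowest JQ1 treatment liver exceeded the highest vehicle liver, the opposite of the order in kidney. The log2 fold change was 0.57 ± 0.12 or 1.48-fold, between 0.49 and 0.64 over all alternatives. In JQ1 recovery livers Csad stood at 316, 269 and 328 CPM, within or below the vehicle range. Cdo1, the step before Csad, had 445, 461 and 472 CPM in JQ1 treatment livers, against 439, 559, 484 and 457 CPM in vehicle livers, and Slc6a6 had 160.2, 151 and 154 CPM, against 138, 157, 167 and 133 CPM. As in kidney, Csad alone of the taurine branch lay apart.

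Cbs had 134, 115 and 102 CPM in JQ1 treatment livers, against 156, 142, 141 and 136 CPM in vehicle livers, below all of them (log2 fold change -0.30 ± 0.18). Shmt1 had 129.9, 132 and 131 CPM in JQ1 treatment livers, against 136, 145, 144 and 135 CPM in vehicle livers, also below all of them but by a small margin (-0.10 ± 0.12). Cth, the enzyme after Cbs, had 199.7, 252 and 245 CPM in JQ1 treatment livers, against 210.4, 210.1, 181 and 183 CPM in vehicle livers, with overlap (0.24 ± 0.14). Dmgdh had 91.9, 125 and 146 CPM in JQ1 treatment livers, against 77.4, 104, 89.7 and 95.8 CPM in vehicle livers, with overlap (0.40 ± 0.17).

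The glycine cleavage genes, which lay apart in kidney, overlapped in liver. Gldc had 46.8, 50.6 and 58.1 CPM in JQ1 treatment livers, against 65.7, 61.5, 49.6 and 57.9 CPM in vehicle livers (-0.18 ± 0.13). Amt had 35.2, 46.7 and 36.4 CPM in JQ1 treatment livers, against 38.6, 43.1, 40.9 and 36.6 CPM in vehicle livers (-0.01). Gnmt, the most abundant member in liver, had 1827, 2101 and 2436 CPM in JQ1 treatment livers, against 1918, 2101, 1802 and 2094 CPM in vehicle livers (0.10 ± 0.19).

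**Figure D3:**
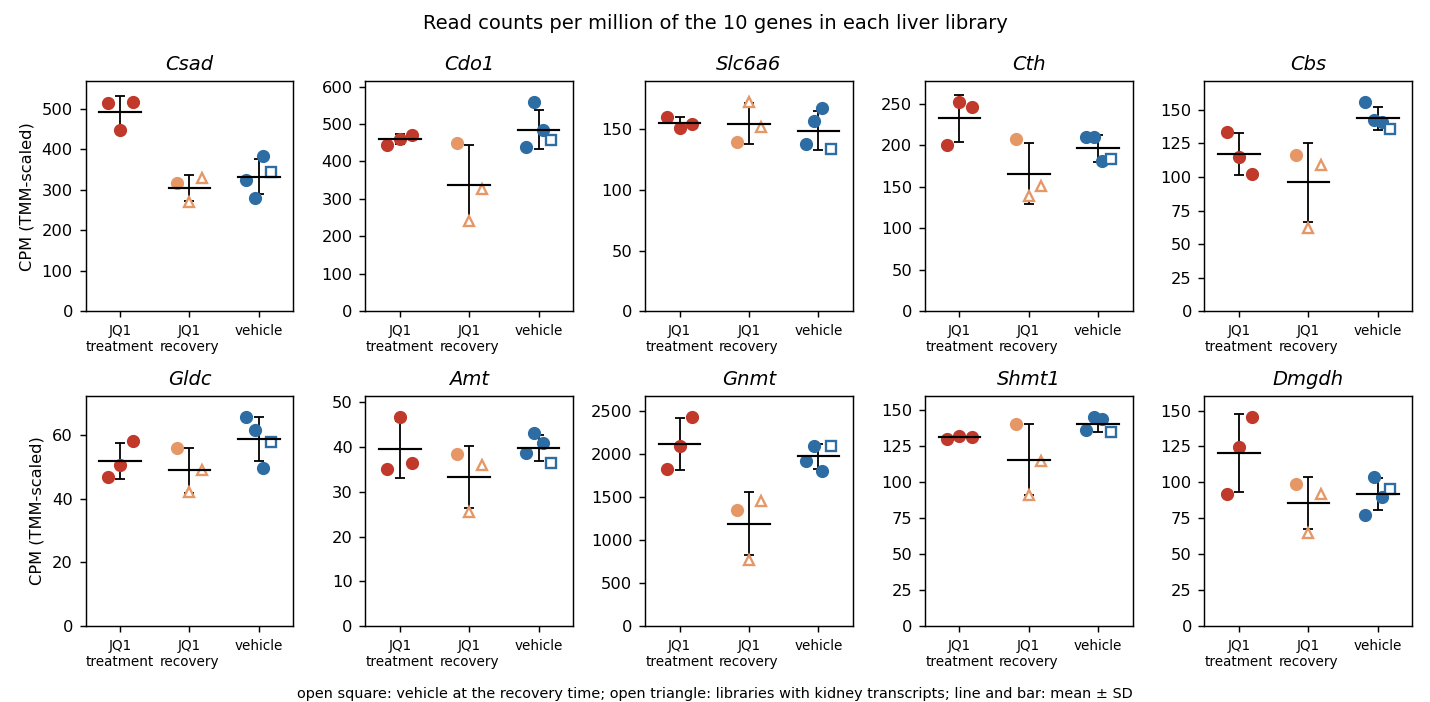
CPM of the 10 members in each liver library, with JQ1 treatment, JQ1 recovery and vehicle from left to right, lines and bars at mean ± SD, open triangles for livers with kidney transcripts and an open square for the vehicle liver of the recovery time. The JQ1 treatment points of Csad (446 to 517 CPM) lie above every vehicle point (281 to 382 CPM), and in JQ1 recovery replicate 2 several members, such as Gnmt at 771 CPM, are far below the others.

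Hepatocyte markers were read in the same livers. They summed to 94818 to 106451 CPM in JQ1 treatment livers, against 80317 to 87099 CPM in vehicle livers, without overlap. Pericentral hepatocyte markers summed to 1891 to 2260 CPM in JQ1 treatment livers, against 2834 to 3256 CPM in vehicle livers, and periportal markers to 1711 to 1747 CPM, against 1714 to 1867 CPM. No marker of these lists passed edgeR's test in this comparison. Their part in the values of Csad, Cbs and Shmt1 in liver was not tested.

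The effect of JQ1 treatment was then compared between the organs, as the log2 fold change in kidney minus that in liver. This contrast had also served to list the members, so no call is given for them. Csad differed by -1.46 ± 0.16, from a fold of 0.54 in kidney and 1.48 in liver, and Gldc by 1.31 ± 0.21. Every JQ1 treatment kidney was below and every JQ1 treatment liver above its controls for Csad. The difference of Csad stayed between -1.58 and -1.37 and that of Gldc between 1.21 and 1.41 over 28 alternatives. Amt differed by -0.66 ± 0.18, between -0.74 and -0.52, and Dmgdh by -0.53 ± 0.22. The remaining 6 members lay between -0.35 (Gnmt) and 0.33 (Cdo1), with standard errors of 0.14 to 0.28. The median of the members was -0.04, against 0.00 over all genes.

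**Figure D4:**
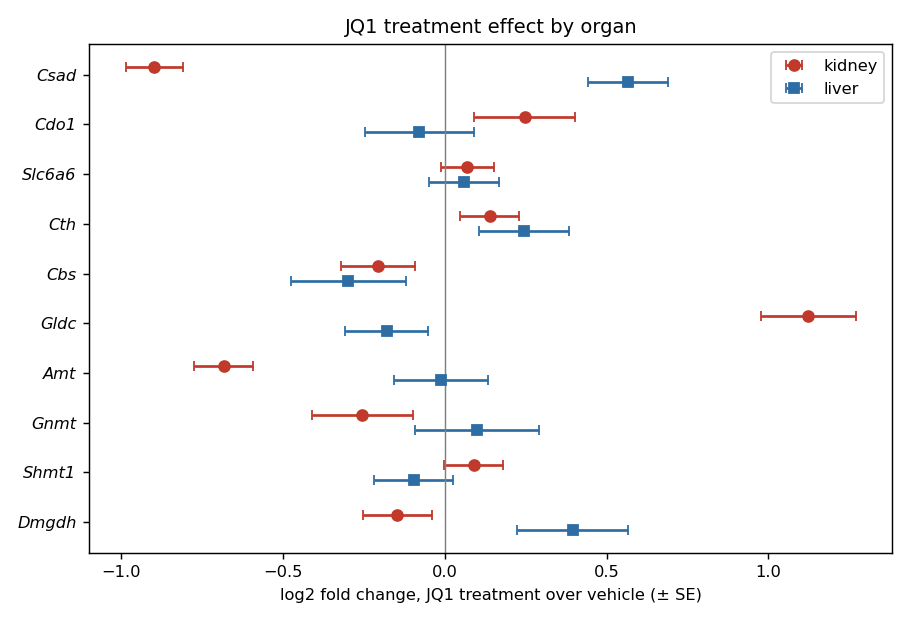
Log2 fold change of JQ1 treatment against control for each member in kidney and in liver, with bars for 1 standard error and a line at 0. Csad lies on opposite sides of 0 in kidney (-0.90) and liver (0.57), and Gldc and Amt stand at 1.12 and -0.68 in kidney and at -0.18 and -0.01 in liver.

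In JQ1 recovery livers 9 of the 10 members had a negative log2 fold change, with a median of -0.26 against 0.02 over all genes. None was called by edgeR, where 0.0343% of all genes were, 5 of 14559 (2430 had an unadjusted p below 0.05). The groups did not overlap for Cbs and Gnmt, both lower, beside 11.6% of all genes in either direction and 6.13% lower. Gnmt had 1352, 771 and 1460.5 CPM in JQ1 recovery livers, against 1918, 2101, 1802 and 2094 CPM in vehicle livers. All 3 recovery livers were below every vehicle liver, replicate 2 furthest. The log2 fold change was -0.73 ± 0.20 (edgeR, adjusted p = 0.129), and DESeq2 gave an adjusted p of 0.00743. Cbs had 116, 62.3 and 109 CPM in JQ1 recovery livers, against 156, 142, 141 and 136 CPM in vehicle livers (-0.58 ± 0.18, edgeR adjusted p = 0.151, DESeq2 adjusted p = 0.0429). In 7 other members too replicate 2 was the lowest of the group in CPM with TMM factors. Without TMM factors this did not hold for 3 of them. Replicates 1, 2 and 3 then had 318, 333 and 345 CPM for Csad, 209, 172 and 158 CPM for Cth, and 56.3, 52.0 and 51.4 CPM for Gldc. The values that follow are with TMM factors. Cdo1 had 448, 239.8 and 326 CPM in JQ1 recovery livers, Cth 208, 139 and 151 CPM, Shmt1 141, 91.4 and 115 CPM and Dmgdh 99.2, 65.1 and 92.2 CPM. Gldc had 56.0, 42.0 and 48.9 CPM and Amt 38.4, 25.5 and 36.0 CPM. Slc6a6, the member higher in kidney than in liver, ran the other way, with 139, 172 and 152 CPM and the highest value in replicate 2.

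Hepatocyte markers were also lower in these livers. Their sum was 73869, 41684 and 67905 CPM in JQ1 recovery livers, against 80317 to 87099 CPM in vehicle livers. Replicate 1, where the median kidney gene stood at 0.0218% of its level in kidney, was below the vehicle livers as well. None of the 10 was called by edgeR, and their median log2 fold change was -0.48. The 6 periportal markers summed to 967 to 1693 CPM in JQ1 recovery livers, against 1714 to 1867 CPM in vehicle livers, with a median log2 fold change of -0.47. The 6 pericentral markers summed to 2148 to 2950.4 CPM in JQ1 recovery livers, against 2834 to 3256 CPM in vehicle livers, with overlap. The part of these markers in the values of Gnmt, Cbs and the other members was not tested.

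Replicates 2 and 3 of this group are the livers with kidney transcripts, and kidney held less than liver of Gnmt, Cbs and Cdo1. Without both libraries the log2 fold changes were -0.55 for Gnmt (adjusted p = 0.63) and -0.31 for Cbs (adjusted p = 0.932) by edgeR, resting on replicate 1 alone and on the spread of the other groups. Cdo1 changed from -0.52 ± 0.17 (adjusted p = 0.158) with all libraries to -0.12 (adjusted p = 0.964) without both by edgeR. Without replicate 1, which left only the livers with kidney transcripts, edgeR called Gnmt (-0.85, adjusted p = 0.0152), Cdo1 (-0.80, adjusted p = 0.00111), Cbs (-0.76, adjusted p = 0.0176), Shmt1 (-0.46, adjusted p = 0.0105) and Cth (-0.46, adjusted p = 0.0214). Over the fits that left out 1 library, edgeR called 0 to 2107 of all genes in this comparison, against 5 with all libraries.

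The kidney part of both libraries was also subtracted at the ratio of the 10 kidney genes, an alternative chosen after seeing the data and computed without TMM factors. At the median ratio Gnmt then stood at 1359, 1449 and 1734 CPM in JQ1 recovery replicates 1, 2 and 3, against 1712 to 2136 CPM in vehicle livers, so that replicate 3 came into the vehicle range. Over the lowest to the highest ratio replicate 2 ran from 1146 to 2326 CPM. Cbs stood at 117, 78.3 and 120.2 CPM, against 134 to 148 CPM in vehicle livers, and replicate 2 remained between 77.6 and 80.3 CPM at every ratio. For Cbs all 3 recovery livers thus lay below the vehicle livers with the kidney part removed, while for Gnmt this held for replicate 1 at every ratio and for the others only at some.

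JQ1 treatment and JQ1 recovery livers differed without overlap in 2 members, both higher at treatment, beside 21.2% of all genes in either direction and 11.3% higher. These were Gnmt and Csad, with log2 differences of treatment minus recovery of 0.83 and 0.69. The treatment livers had chosen the members, so no call is given for them. Of all genes 2.29% were called in either direction and 1.31% higher. These shares carry no weight for the members. The recovery livers of this contrast include both libraries with kidney transcripts.

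The organs were also compared in the recovery effect, which the listing had not used, though its vehicle libraries are those of the treatment effect. Of the members 2 were called by edgeR, both with a higher value in kidney, beside 4.29% of all genes in either direction and 0.531% higher. Cbs had a difference of kidney minus liver of 0.88 ± 0.24 (adjusted p = 0.0467) and Gldc of 0.79 ± 0.21 (adjusted p = 0.0371). Gnmt had the largest difference at 0.98 ± 0.28 and missed the threshold (edgeR, adjusted p = 0.0546). These calls were lost without the livers that held kidney transcripts, where Cbs had 0.60 and Gldc 0.59 (edgeR, adjusted p = 0.406 and 0.513). Against vehicle of the recovery time alone they had 0.47 and 0.98 (edgeR, adjusted p = 0.86 and 0.78). Over 27 alternatives the sign held throughout for both genes, while the call was kept in 4 for Cbs and 9 for Gldc. Leaving out 1 library ended the call of Cbs in 18 of 20 fits and that of Gldc in 14 of 20. No other member was called, with adjusted p of 0.274 to 0.871 by edgeR.

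Genes around the members were read from 9 lists with 107 genes of taurine synthesis, transsulfuration, sulfide oxidation, glycine and serine, choline and sarcosine, folate, transport, glutathione and cofactors, none of them a member. In kidney at JQ1 treatment 97 were tested, of which 10 fell and 1 rose by edgeR (11.3%, beside 4.13% of all genes), with a median log2 fold change of -0.09. Leaving out 1 library gave 5 to 13 calls. The lists were chosen with earlier results of these data known, so their shares beside all genes are a description. In choline, betaine and sarcosine oxidation, 2 of 6 fell and 1 rose. Of 17 genes of glycine cleavage, serine and glyoxylate 2 fell, of 16 folate genes 2, of 9 glutathione genes 2, of 13 transporters 1 and of 19 methionine cycle genes 1. None of 3 taurine, 9 sulfide and 5 cofactor genes was called.

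Sardh, the sarcosine dehydrogenase that acts after Dmgdh and after Gnmt, fell most. It had 34.1, 56.8 and 48.9 CPM in JQ1 treatment kidneys, against 88.0, 83.1, 92.8 and 103 CPM in vehicle kidneys, with a log2 fold change of -0.97 ± 0.14 (edgeR, adjusted p = 0.00232). Pipox, the peroxisomal enzyme that also oxidises sarcosine, had 98.0, 91.0 and 101 CPM in JQ1 treatment kidneys, against 121, 141, 124 and 137 CPM in vehicle kidneys (-0.44 ± 0.08, edgeR adjusted p = 0.00269). The product of Gnmt thus had both of its oxidising enzymes at a lower transcript level, while Gnmt and Dmgdh themselves overlapped control.

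Dao, the peroxisomal D-amino acid oxidase that also acts on glycine, had 71.3 to 93.2 CPM in JQ1 treatment kidneys, against 117 to 129 CPM in vehicle kidneys (-0.57 ± 0.09, edgeR adjusted p = 0.000609). Aldh1l1, which oxidises formyltetrahydrofolate, had a log2 fold change of -0.50 (edgeR, adjusted p = 0.000552) and Dpep1, a dipeptidase that frees cysteine and glycine in glutathione turnover, one of -0.60 (adjusted p = 0.000395). Sardh, Pipox, Dao, Aldh1l1 and Dpep1 kept their calls in all 7 fits that left out 1 JQ1 treatment or vehicle kidney. The other 6 were less stable. Fpgs (-0.64, adjusted p = 0.0185), Ahcyl2 (-0.31, 0.0215) and Shmt2 (-0.42, 0.021) lost the call in 2, 3 and 4 of the 7 fits, with adjusted p of up to 0.0626, 0.0974 and 0.0898 by edgeR. Slc36a1 (-0.34), Gss (-0.40) and Aldh7a1 (0.28), the 1 gene that rose, each lost it in 5, with adjusted p of up to 0.158, 0.171 and 0.178.

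**Figure D5:**
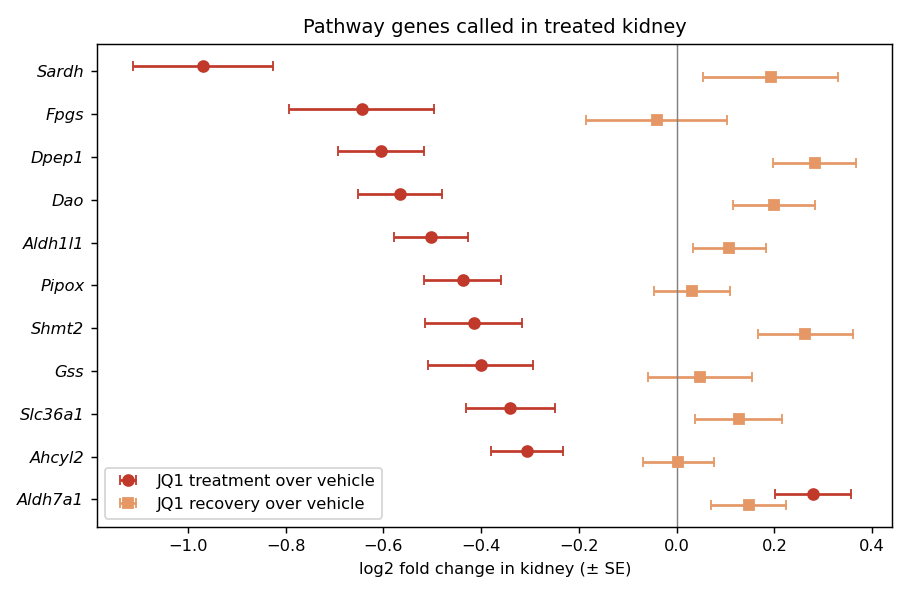
Log2 fold change of JQ1 treatment against control in kidney (circles) and of JQ1 recovery against control (squares) for the 11 pathway genes that passed edgeR's test at treatment, with bars for 1 standard error and a line at 0. At treatment 10 genes lie below 0, down to -0.97 for Sardh, and Aldh7a1 lies above at 0.28, while at recovery the same genes run from -0.04 (Fpgs) to 0.28 (Dpep1), none of them called.

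At JQ1 recovery none of the 97 genes was called in kidney by edgeR, with Sardh at 0.19 (adjusted p = 0.724) and Dpep1 at 0.28 (adjusted p = 0.307). In liver none of 93 was called at JQ1 treatment or at JQ1 recovery with all libraries in the fit. Without both livers that held kidney transcripts 7 were called at JQ1 treatment, 4 higher and 3 lower, and none at JQ1 recovery. Sardh had a log2 fold change of -0.59 in JQ1 treatment livers with all libraries (edgeR, adjusted p = 0.131) and -0.60 without both (adjusted p = 0.00437). Pipox had -0.49 (edgeR, adjusted p = 0.0827) and, without both, -0.50 (adjusted p = 0.00273). Over 19 alternatives the adjusted p ran from 0.00403 to 0.511 for Sardh and from 0.00236 to 0.503 for Pipox, and passed the threshold in 6 and 7 of them. Pipox had 79.7, 68.0 and 74.8 CPM in JQ1 treatment livers, against 98.7, 108, 106 and 103 CPM in vehicle livers, without overlap between the groups.

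The organ difference in the treatment effect was called for 1 of 103 pathway genes (0.971%, beside 0.169% of all genes). This was Fmo1, a flavin monooxygenase that can oxidise hypotaurine, the product of Csad, to taurine. In kidney Fmo1 had 142, 146 and 137 CPM after JQ1 treatment, against 145, 150.4, 169 and 168 CPM in vehicle kidneys. In liver it had 81.6, 87.5 and 90.7 CPM after JQ1 treatment, against 61.2, 70.1, 62.0 and 63.0 CPM in vehicle livers. The difference of -0.58 ± 0.11 (edgeR, adjusted p = 0.0242) had the same direction as that of Csad. With all libraries neither organ alone passed the test (kidney -0.16, adjusted p = 0.255, and liver 0.43, adjusted p = 0.0568, by edgeR). In liver the adjusted p of Fmo1 ran from 0.00134 to 0.316 over 19 alternatives (edgeR, DESeq2 or limma voom) and passed the threshold in 5. Without both livers that held kidney transcripts Fmo1 had 0.42 in liver, and the organ difference was -0.57. The call of the difference was lost in 9 of 14 fits without 1 library of these groups, with adjusted p of up to 0.106.

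Likeness in pattern was read as Pearson's r of log2 CPM over the 10 libraries of an organ, which share group differences and depth, so it is given without a test. Among the genes most like Gldc in kidney were ENSMUSG00000121042 (0.94) and Eea1 (0.94). The genes most like Csad in liver were Gcsh (0.95), which encodes the hydrogen carrier of the glycine cleavage system, Gm2000 (0.95) and Rpl39 (0.95). Among the members Csad and Amt ran together in kidney (0.95), as did Cbs and Gnmt (0.91), and Csad ran against Gldc (-0.83). In liver the highest value was that of Cdo1 with Shmt1 (0.97), over libraries that include both with kidney transcripts.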

How the data were processed

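Reads were trimmed with fastp 0.20.1 and quantified with Salmon 1.10.0 by the authors. The deposited files give, for 147833 transcripts per library, Salmon's estimated counts and its TPM. Salmon shares ambiguous reads among transcripts, so estimated counts need not be whole. Here they were summed per gene identifier and rounded. The TPM deposited by the authors was summed likewise and used only for levels of different genes.

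Each organ was tested over its 10 libraries in edgeR 4.0.16 (R 4.3.3) with TMM factors, robust quasi-likelihood fits and filterByExpr (minimum count 10, minimum total 15), which kept 17158 genes in kidney and 14559 in liver. Organ differences were tested over 20 libraries (17710 genes). Adjusted p is by Benjamini-Hochberg over all genes tested, and a gene was called below 0.05. Fold changes are ± SE. The fits were tested on simulated data. Because replicates are known only by number, p measures the spread between these samples.

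Members and lists were chosen with earlier results of these data known. Named pathway genes were those called at JQ1 treatment in an organ or in the organ difference, at most 4 a list. Alternatives used DESeq2 1.42.0 and limma 3.58.1, other scaling, no filter, length-scaled counts, same-time vehicle, a replicate block and each library left out. The strand setting is not given in the sources used here, so overlapping genes are uncertain. Sources name 2 annotations, so only RefSeq promoter coordinates are given. One gene of the comparison of patterns is not reported here.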

Additional observations from a re-analysis of the deposited data

Results flagged for a closer look

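The effect of JQ1 treatment on Csad ran in opposite directions in the organs. The difference of kidney minus liver was -1.46 on the log2 scale, with all 3 kidneys below and all 3 livers above their controls, and it was not tested because the gene had been listed for it. Cbs and Gldc differed between the organs in the recovery effect, by 0.88 and 0.79 (edgeR, adjusted p = 0.0467 and 0.0371). Both calls were lost without the 2 liver libraries that held kidney transcripts. Fmo1 differed between the organs in the treatment effect by -0.58 (edgeR, adjusted p = 0.0242). Within the 20 groups of vehicle libraries examined (10 members in 2 organs) 0 had a library apart from the other 3 by Dixon's criterion, where chance gives about 1 in 20.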

How the results depend on the processing

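Signs held for Csad, Gldc and Amt at JQ1 treatment in kidney and in the organ difference under every alternative run, within the ranges given above. Counts of calls moved more, and calls of the members at recovery and, for Csad and Amt, between the organs of vehicle mice depended on settings. The causes were not tested. In kidney at JQ1 treatment 709 genes became 1084 without the filter, 432 with length-scaled counts and 459 with only the groups compared, and the 11 pathway genes became 18, 6 and 7. In kidney at recovery 1 gene became 103 in DESeq2, 182 without the filter, 13 with only the groups compared and 0 without TMM factors, with length-scaled counts or with the block. Without the filter 1 member and 2 pathway genes were called there, and in DESeq2 1 pathway gene. In liver at treatment 72 genes became 284 in DESeq2, 33 in limma voom, 128 without the filter, 37 with length-scaled counts, 368 with only the groups compared, 34 with same-time vehicle and 358 without both livers that held kidney transcripts. Calls of members are not given for this comparison, which had chosen them. Pathway calls there were 4 in DESeq2, 2 without TMM factors or filter, and 7 with only the groups compared or without both livers. In liver at recovery 5 genes became 662 in DESeq2, 226 without the filter, 2 with length-scaled counts or the block, and 1 in limma voom, without TMM factors, with only the groups compared, with same-time vehicle or without both livers. DESeq2 called 2 members and 12 pathway genes, and 4 pathway genes were called without the filter. For the organ difference in treatment 30 genes became 109 in DESeq2, 17 with same-time vehicle, 118 without both livers and 83 without recovery libraries, and the 1 pathway gene became 3 in DESeq2 and 0 with same-time vehicle. For that in recovery 759 genes became 1487 in DESeq2, 413 without the filter, 1 with same-time vehicle and 0 without both livers. The 2 members became 0 without TMM factors, with same-time vehicle, with the block and without both livers, and 1 without the filter, and the 13 pathway genes became 21 in DESeq2, 7 without the filter and 0 with same-time vehicle, the block or without both livers. Without TMM factors Amt in kidney against liver turned to 0.0874.

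Leaving out 1 library at a time gave 411 to 756 genes and 5 to 13 pathway genes in kidney treatment. Liver treatment gave 15 to 271 and 0 to 4, and the organ difference in treatment 12 to 80 and 0 to 1. Kidney recovery gave 0 to 240 genes, 0 to 1 member and 0 to 5 pathway genes, and liver recovery 0 to 2107, 0 to 5 and 0 to 32. The 5 members were called without replicate 1, which leaves both livers with kidney transcripts. The organ difference in recovery gave 0 to 2237 genes, 0 to 5 members and 0 to 28 pathway genes. Kidney against liver gave 10349 to 11276 genes, 10 members and 86 to 90 pathway genes.

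Correlations of same-numbered kidney and liver libraries ran from -0.0673 to 0.0404, against -0.0505 to 0.0682 for libraries with other numbers. Different organs of the same mouse need not vary alike, so these values cannot decide whether same-numbered libraries shared a mouse. With the number as a block 41 genes were called in liver treatment, and 4 genes in the organ difference in recovery (limma voom). The planned subtraction of liver RNA from kidney libraries was not run, since its share was below 0.1%. Gldc in kidney rested on the fewest reads of any member. The single vehicle sample of the recovery time per organ limits comparisons at that age.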
